A study of Mus musculus with 32 samples.

Results

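*Epdr1* (NCBI gene 105298), the mouse gene for ependymin related protein 1, was followed through bone marrow-derived macrophages and dendritic cells of *Pparg*+/- *LysCre* and *Pparg* fl/- *LysCre* mice. It is read on these arrays by 1 probe of 33012 noncontrol probes. The gene was chosen by its own signal and signal-to-noise ratio (S/N) in all 8 groups, so its levels and differences are given as a description, with their spread and without a test.

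The cells came from 8 C57Bl/6 mice that all carried the *LysCre* transgene, in which the lysozyme promoter drives Cre recombinase in myeloid cells. Mice 1 to 4 were *Pparg*+/- *LysCre* and keep a functional allele of *Pparg*, whereas mice 5 to 8 were *Pparg* fl/- *LysCre*, with a null allele and a loxP-flanked allele that Cre removes. Marrow of each mouse was grown for 9 days with IL-4 (20 ng/ml), either with M-CSF (20 ng/ml) to give IL-4 macrophages or with GM-CSF (20 ng/ml) to give immature DCs (iDCs). Each culture received vehicle (DMSO and ethanol) or 1 μM rosiglitazone (RSG), which made 32 arrays in 8 groups of 4 mice. The ages of the mice are not given in the sources used here.

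EPDR1 belongs to the ependymins, small glycoproteins first described in the brain fluid of fish. The mammalian protein carries sugar chains, reaches lysosomes and can also be secreted, and its fold encloses a hydrophobic pocket of a kind that holds lipids. PPARγ is a nuclear receptor that pairs with RXR on DNA and raises genes of lipid uptake and storage when a fatty acid derivative or a synthetic agonist such as RSG is bound. IL-4, through STAT6, is the cytokine that turns macrophages to the alternative state.

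*Epdr1* spans 28123 bases on the minus strand of chromosome 13, at chr13:19591708-19619830 of GRCm38.p6 in RefSeq. Exons and the place of the probe in the transcript were not analysed here. The 250 bases before its start are shown because elements of PPARγ and STAT6, the factors behind RSG and IL-4, were looked for in them, with the 4 CG dinucleotides in capitals. They lie at chr13:19619831-19620080 on the minus strand and are printed from the RefSeq table of that build, 5′ to 3′.

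*Epdr1* upstream: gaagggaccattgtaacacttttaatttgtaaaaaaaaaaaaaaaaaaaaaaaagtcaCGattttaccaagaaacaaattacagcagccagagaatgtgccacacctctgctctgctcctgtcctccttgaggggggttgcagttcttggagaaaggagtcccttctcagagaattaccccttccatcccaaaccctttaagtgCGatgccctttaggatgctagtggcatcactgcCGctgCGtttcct

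This stretch was 44.0% G and C, and 21.1% of the 32851 promoters in the table had less. It held 4 CG dinucleotides, beside a median of 6.0 over all promoters, and a run of 24 adenines that begins 220 bases before the start. On both strands, 7 motifs were searched in it. The DR1 element of PPARγ and RXR, made of a pair of AGGTCA half-sites with 1 base between, had no match here and a match in 0.0335% of promoters. Single AGGTCA half-sites, which include those of the DR1 element, had no match here and a match in 14.0% of promoters. TTCNNNNGAA, the form bound by STAT6, was likewise without a match and was found in 5.85% of promoters. The shorter TTCNNNGAA of STAT5 was in 7.02% of them. The other three were CACGTG, the core of the CLEAR element of lysosomal genes, in 6.02%, TGANTCA of AP-1 in 6.75% and GAGGAA of PU.1 in 23.3%, and none of them was in the *Epdr1* stretch. An absent match says only that these letters are not in this window.

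A probe counted as detected on an array at an S/N of at least 3. Detected probes numbered 13595 to 16683 per array, and the tests use the 16620 probes, *Epdr1* among them, that 3 or more of the 4 mice of some group detected. *Epdr1* passed through its macrophage groups. Values below are log2 of the signal after quantile normalization over the 32 arrays. Mouse 5 stood apart within its genotype, in 2 genes that mark other marrow cells. *Hba-a1*, a hemoglobin chain of red cells, was at 8.59 in its vehicle-treated macrophages against 12.2 to 12.7 in mice 6 to 8 and 7.92 to 8.27 in *Pparg*+/- *LysCre* mice. *Ear1*, an eosinophil-associated ribonuclease, was at 17.20 there against 14.6 to 15.2 in mice 6 to 8 and 17.37 to 17.66 in *Pparg*+/- *LysCre* mice. In vehicle-treated macrophages mouse 5 was thus nearer to the other genotype than to its own in both genes. This did not hold for *Ear1* elsewhere. In RSG-treated macrophages its *Ear1* level of 17.19 was nearer to that of mice 6 to 8, 15.08 to 16.58, than to that of mice 1 to 4, 19.18 to 19.53. In vehicle-treated iDCs its level of 15.10 lay within those of mice 6 to 8, 14.51 to 15.22. It also lay within those of mice 1 to 4, 14.21 to 15.59, so it sided with neither genotype there. Whether its genotype label or the deletion by Cre departs from that of mice 6 to 8 was not tested. *Epdr1* differences that involve *Pparg* fl/- *LysCre* cells are therefore also given without mouse 5, as are genotype differences of *Hba-a1* and *Ear1* in macrophages. No probe carried the symbol *Pparg*, and no marker of the macrophage list (0 of 16) or the dendritic cell list (0 of 20) had a named probe, so genotype and cell type were not checked against these genes.

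*Epdr1* was highest in vehicle-treated IL-4 macrophages of both genotypes, whose levels overlapped. In *Pparg*+/- *LysCre* mice 1 to 4 the log2 levels were 9.97, 10.47, 9.15 and 9.39, a mean of 9.75 ± 0.59 (SD, n = 4). Mice 5 to 8, *Pparg* fl/- *LysCre*, gave 9.40, 10.53, 9.97 and 9.78, a mean of 9.92 ± 0.47 (SD, n = 4). The ranges overlapped from 9.40 to 10.47, and all 8 arrays detected the probe, at an S/N of 4.85 to 19.6. The genotype difference, *Pparg* fl/- *LysCre* minus *Pparg*+/- *LysCre*, was 0.17 ± 0.29 (SE), smaller than the spread between mice, and 0.35 without mouse 5. It became 0.42 without mouse 2, -0.03 without mouse 3 and -0.03 without mouse 6, so no direction can be read from it. Over all tested probes, 63.2% differed at least as much in either direction.

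**Figure D1:**
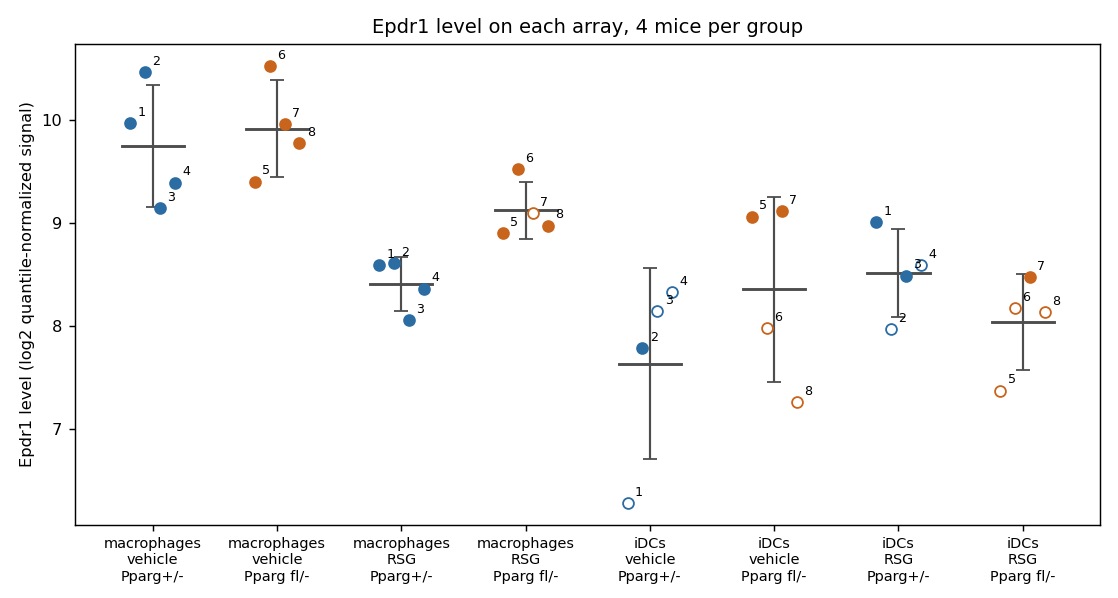
Level of *Epdr1* (log2 quantile-normalized signal) on each of the 32 arrays, by cell type, treatment and genotype, with the mouse number beside each point. Filled points have an S/N of at least 3, open points a lower one, and bars give the mean ± SD of 4 mice. Vehicle-treated macrophages of both genotypes sit from 9.15 to 10.53, and vehicle-treated iDCs from 6.28 to 9.12.

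RSG-treated macrophages had less *Epdr1* in every mouse of both genotypes. In *Pparg*+/- *LysCre* macrophages the levels with RSG were 8.59, 8.61, 8.05 and 8.36 in mice 1 to 4, a mean of 8.41 ± 0.26 (SD, n = 4). All 4 lay below all 4 vehicle values, a pattern that 6.2% of the tested probes showed in this comparison. Within the same mouse, RSG minus vehicle was -1.38, -1.86, -1.10 and -1.03, and 16.3% of the tested probes were lower in 4 of 4 mice. The mean difference was -1.34 ± 0.29 (SE), or 2.53-fold lower, and 1.29% of the tested probes had a difference at least as low. The median over all tested probes was -0.03. The deposited signals behind these values averaged 855 ± 439 (SD) with vehicle and 342 ± 92.7 (SD) with RSG.

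In *Pparg* fl/- *LysCre* macrophages the levels with RSG were 8.90, 9.52, 9.09 and 8.98 in mice 5 to 8, a mean of 9.12 ± 0.28 (SD, n = 4). The lowest vehicle value, 9.40 in mouse 5, lay under the highest RSG value, 9.52 in mouse 6, so the groups overlapped by that pair. RSG minus vehicle within the same mouse was -0.50, -1.01, -0.87 and -0.80. Of the tested probes, 8.9% were lower in 4 of 4 mice here. The mean difference was -0.80 ± 0.29 (SE), or 1.74-fold lower, and -0.89 without mouse 5. A difference at least as low was found in 2.56% of the tested probes. Deposited signals averaged 1108 ± 582 (SD) with vehicle and 541 ± 59.8 (SD) with RSG.

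**Figure D2:**
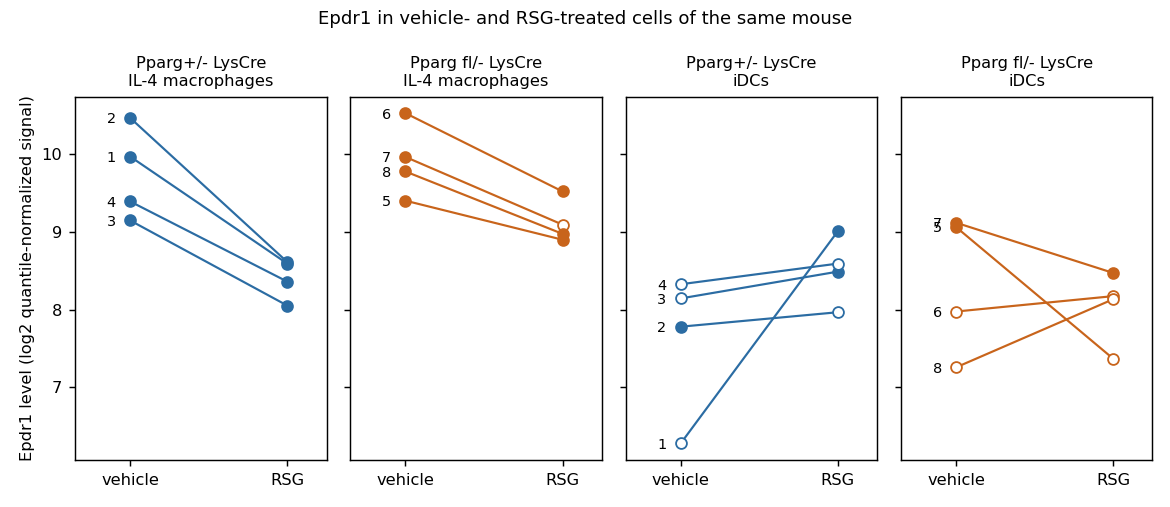
Level of *Epdr1* (log2 quantile-normalized signal) in vehicle- and RSG-treated cells of the same mouse, joined by a line, in each genotype and cell type. Mouse numbers stand at the vehicle value, and open points have an S/N under 3. All 8 macrophage lines go down, from -0.50 in mouse 5 to -1.86 in mouse 2, while the iDC lines go down in mice 5 and 7 and up in the other 6.

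The order of the mice was kept between the treatments of the macrophages. From highest to lowest it was mouse 2, 1, 4 and 3 with vehicle and with RSG in *Pparg*+/- *LysCre* cells. It was mouse 6, 7, 8 and 5 with either treatment in *Pparg* fl/- *LysCre* cells. The scan days, of which each held 2 mice of 1 genotype, gave mean RSG differences of -1.62 and -1.06 in *Pparg*+/- *LysCre* macrophages and of -0.76 and -0.84 in *Pparg* fl/- *LysCre* macrophages. RSG-treated macrophage arrays also detected fewer probes, 13830 to 15250 against 15144 to 15918 with vehicle in *Pparg*+/- *LysCre* cells. Their counterparts from *Pparg* fl/- *LysCre* mice detected 14197 to 15227 against 15293 to 16009. The part of this difference in the *Epdr1* values was not tested. In these bulk samples, fewer cells of a type and less RNA per cell cannot be told apart.

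**Figure D3:**
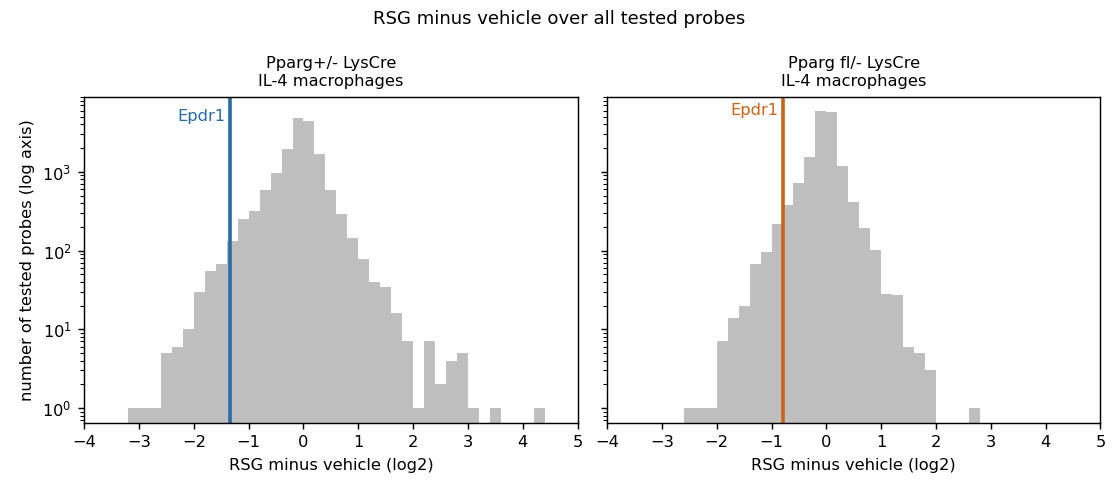
Distribution of RSG minus vehicle (log2) over the 16620 tested probes in IL-4 macrophages of each genotype, with the number of probes on a log axis and *Epdr1* as a vertical line. *Epdr1* lies at -1.34 in *Pparg*+/- *LysCre* cells and at -0.80 in *Pparg* fl/- *LysCre* cells, in the lower tail of both distributions.

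With RSG the genotypes no longer overlapped in macrophages. All 4 *Pparg* fl/- *LysCre* values, 8.90 to 9.52, lay above all 4 *Pparg*+/- *LysCre* values, 8.05 to 8.61, as did those of 8.2% of the tested probes. The difference was 0.72 ± 0.29 (SE), or 1.64-fold higher in *Pparg* fl/- *LysCre* cells, and 0.79 without mouse 5. At least as high a difference was found in 10.7% of the tested probes. The RSG difference itself was 0.54 ± 0.40 (SE) less negative in *Pparg* fl/- *LysCre* macrophages, and 0.45 without mouse 5. Paired by mouse, as a block, its SE was 0.21. The per-mouse values of the genotypes did not overlap, but only by the margin between -1.03 in mouse 4 and -1.01 in mouse 6. How many tested probes show such a margin was not counted, so it is a description only. Since each scan day held a single genotype, genotype and scan day cannot be told apart within a day. With the day as a random block the RSG-treated difference was 0.72 ± 0.30 (SE).

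*Epdr1* was near the limit of detection in iDCs. Of 16 macrophage arrays 15 had an S/N of at least 3, and of 16 iDC arrays 6. On 2 iDC arrays, those of vehicle-treated cells of mouse 1 and mouse 6, the S/N was 1 or less, where the listed signal is the noise level of the spot and not a measurement. The S/N of vehicle-treated *Pparg*+/- *LysCre* iDCs was -0.98, 3.34, 2.34 and 2.20 in mice 1 to 4. With RSG it was 5.94, 2.49, 3.97 and 2.83. In *Pparg* fl/- *LysCre* iDCs it was 5.57, 0.28, 3.40 and 1.57 with vehicle in mice 5 to 8, and 1.04, 1.96, 6.01 and 1.56 with RSG. No iDC group was detected on more than 2 of its 4 arrays.

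**Figure D4:**
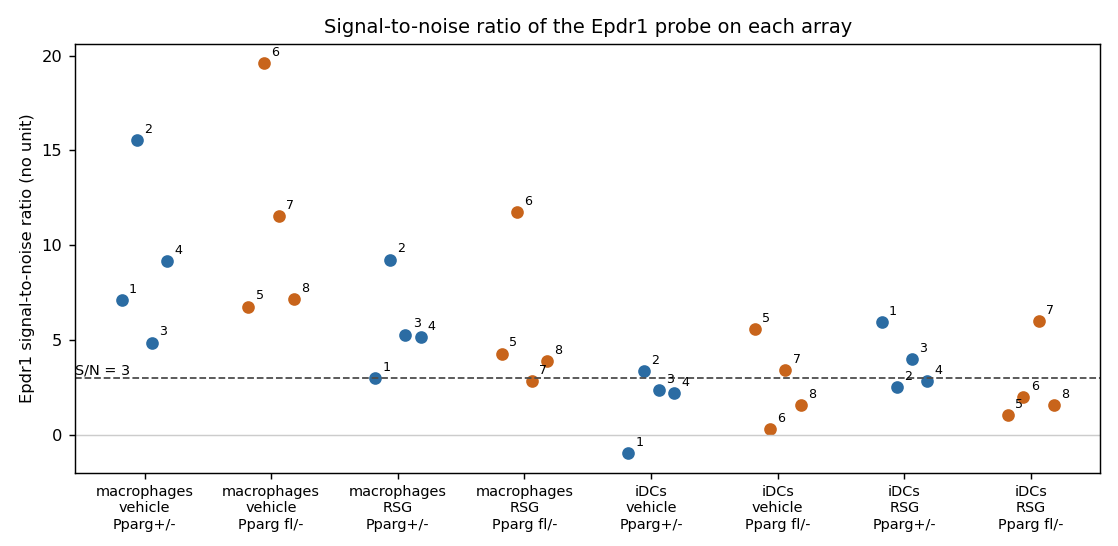
Signal-to-noise ratio of the *Epdr1* probe on each array, by cell type, treatment and genotype, with mouse numbers and a dashed line at the detection limit of 3. Of 16 macrophage arrays 15 reach the line, and 6 of 16 iDC arrays do.

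In *Pparg*+/- *LysCre* iDCs the log2 levels were 6.28, 7.78, 8.15 and 8.33 with vehicle and 9.01, 7.97, 8.49 and 8.59 with RSG. The means were 7.63 ± 0.93 and 8.52 ± 0.43 (SD, n = 4). RSG minus vehicle was above 0 in 4 of 4 mice, at 2.73, 0.19, 0.35 and 0.27. The mean of 0.88 ± 0.48 (SE) rested on mouse 1, whose vehicle value was at the noise level, and was 0.27 without that mouse. In *Pparg* fl/- *LysCre* iDCs the levels were 9.06, 7.98, 9.12 and 7.26 with vehicle and 7.37, 8.17, 8.47 and 8.13 with RSG. The means were 8.35 ± 0.90 and 8.04 ± 0.47 (SD, n = 4), with 2 mice higher and 2 lower. The difference of -0.32 ± 0.48 (SE) was within the spread between mice and became 0.14 without mouse 5, -0.49 without mouse 6, -0.21 without mouse 7 and -0.71 without mouse 8.

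Genotype differences in iDCs had opposite signs in the treatments. *Pparg* fl/- *LysCre* minus *Pparg*+/- *LysCre* was 0.72 ± 0.48 (SE) with vehicle and -0.48 ± 0.48 (SE) with RSG, and both pairs of groups overlapped. The vehicle difference was within the SD between mice, 0.92, and the RSG difference was slightly above it, 0.45. Without mouse 5 these were 0.48 and -0.25, and without mouse 1 they were 0.27 and -0.31. The vehicle difference was also 0.47 without mouse 7 and 1.09 without mouse 8. The RSG difference of *Pparg* fl/- *LysCre* iDCs minus that of *Pparg*+/- *LysCre* iDCs was -1.20 ± 0.68 (SE). It was -0.58 without mouse 1 and -0.74 without mouse 5. The order of the mice differed between treatments, from mouse 4, 3, 2 and 1 with vehicle to mouse 1, 4, 3 and 2 with RSG in *Pparg*+/- *LysCre* iDCs.

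Between cell types, *Epdr1* was higher in macrophages than in iDCs of the same mouse in vehicle-treated cells of all 8 mice. In *Pparg*+/- *LysCre* cells, iDC minus macrophage was -3.69, -2.69 and -1.07 in mice 1, 2 and 4, and below 0 in mouse 3 as well. The mean was -2.11 ± 0.41 (SE), -1.59 without mouse 1 and -1.66 without its iDC value at the noise level, and only 1 of the 4 iDC arrays detected the probe. All 4 iDC values lay below all 4 macrophage values, as for 23.4% of the tested probes. The values of mice 5 to 8, *Pparg* fl/- *LysCre*, were -0.34, -2.55, -0.85 and -2.52, a mean of -1.57 ± 0.41 (SE), or -1.97 without mouse 5. The mean was -1.44 without the iDC value of mouse 6 at the noise level, and 2 of the 4 iDC arrays detected the probe. Here too the groups did not overlap, as for 18.4% of the tested probes. A difference at least as low was found in 2.71% of the tested probes in *Pparg*+/- *LysCre* cells and in 4.71% in *Pparg* fl/- *LysCre* cells. Since iDC arrays that did not detect the probe enter both differences, these shares are not exact ranks.

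With RSG the cell types overlapped in *Pparg*+/- *LysCre* cells and not in *Pparg* fl/- *LysCre* cells, a difference between genotypes that was not tested. In *Pparg*+/- *LysCre* cells, RSG-treated iDCs and macrophages overlapped and the mean difference was 0.11 ± 0.41 (SE), with 3 mice higher and 1 lower in iDCs. It was 0.01 without mouse 1, 0.36 without mouse 2, 0.0007 without mouse 3 and 0.07 without mouse 4, so its size rested on single mice. In *Pparg* fl/- *LysCre* cells the values were -1.53, -1.35, -0.62 and -0.84 in mice 5 to 8. All 4 iDC values lay below all 4 macrophage values, as for 14.3% of the tested probes. The mean was -1.09 ± 0.41 (SE), and -0.94 without mouse 5, and only 1 of the 4 iDC arrays detected the probe. The RSG difference of iDCs minus that of macrophages was 2.22 ± 0.57 (SE) in *Pparg*+/- *LysCre* cells and above 0 in 4 of 4 mice, from 1.30 to 4.11. It was 1.59 without mouse 1. It was 0.48 ± 0.57 (SE), in *Pparg* fl/- *LysCre* cells, above 0 in 3 of 4 mice. It was 1.04 without mouse 5, 0.24 without mouse 6 and 0.08 without mouse 8, so it rested on single mice.

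By mean level the groups ran from vehicle-treated *Pparg* fl/- *LysCre* macrophages (9.92) and vehicle-treated *Pparg*+/- *LysCre* macrophages (9.75) to RSG-treated *Pparg* fl/- *LysCre* macrophages (9.12). RSG-treated *Pparg*+/- *LysCre* iDCs (8.52), RSG-treated *Pparg*+/- *LysCre* macrophages (8.41) and vehicle-treated *Pparg* fl/- *LysCre* iDCs (8.35) followed, with gaps of 0.11 and 0.05 between them. RSG-treated *Pparg* fl/- *LysCre* iDCs (8.04) and vehicle-treated *Pparg*+/- *LysCre* iDCs (7.63) came last. Every pair of neighbours in this order overlapped. Of the gaps between neighbours, the 0.62 above and the 0.61 below RSG-treated *Pparg* fl/- *LysCre* macrophages exceeded the larger SD of the pair, 0.59 and 0.43.

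*Sfrp4*, which encodes a secreted Wnt antagonist, is the next gene on chromosome 13, at chr13:19623175-19632825, 3344 bases beyond the start of *Epdr1*. In vehicle-treated *Pparg*+/- *LysCre* macrophages its probe read 12.55, 11.64, 10.08 and 10.60 in mice 1 to 4, with an S/N of 8.59 to 39.9. With RSG it read 8.68, 8.20, 8.11 and 7.17 and no array detected it. Both neighbours were thus lower with RSG in all 4 of these mice, as were 16.3% of the tested probes. In *Pparg* fl/- *LysCre* macrophages *Sfrp4* read 6.02, 9.48, 8.81 and 6.63 with vehicle and was detected on 1 of 4 arrays, where *Epdr1* was detected on 4 of 4. With RSG it read 7.39, 8.53, 8.45 and 7.57 and was again detected on 1 of 4 arrays, so no direction can be read from it there. Over the 32 arrays Pearson's r between the probes was 0.59, which ranked 795 among 16619 other probes.

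**Figure D5:**
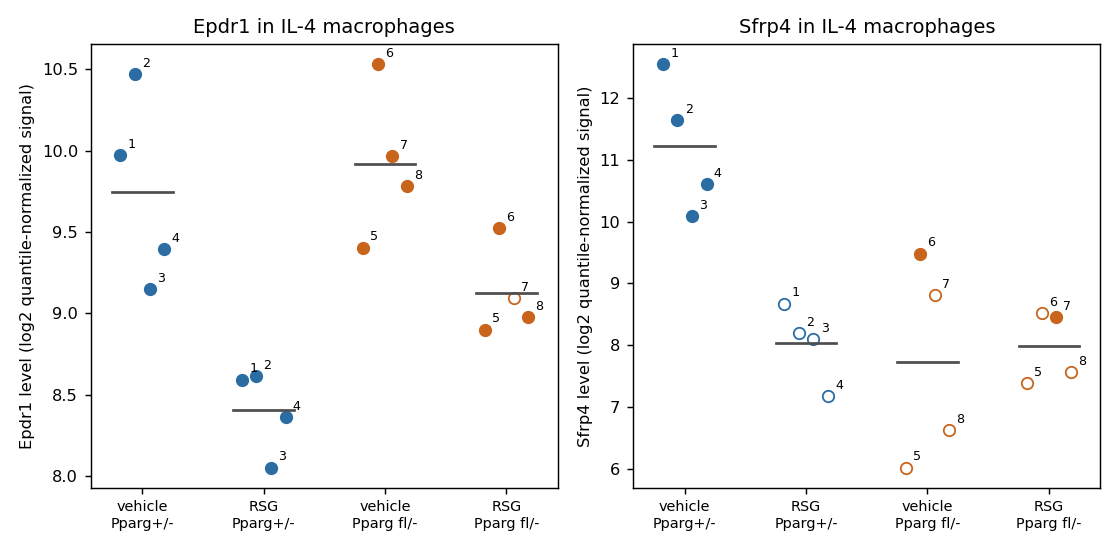
Levels (log2 quantile-normalized signal) of *Epdr1* and of its neighbour *Sfrp4* in IL-4 macrophages by treatment and genotype, each on its own axis, with group means as lines and mouse numbers beside the points. Filled points have an S/N of at least 3. *Epdr1* is high in both vehicle groups, whereas *Sfrp4* is detected on 4 of 4 arrays in vehicle-treated *Pparg*+/- *LysCre* cells and on 1 of 4 in vehicle-treated *Pparg* fl/- *LysCre* cells.

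Likeness to *Epdr1* was measured as Pearson's r over the 32 arrays, which share mice, scan days and normalization. Of 16619 other tested probes 69 had an r above 0.7 and 21 an r below -0.7, and the median was 0.04. The 5 highest were gene models mCG4978.2 (0.79), mCG148468.1 (0.79), mCG21598.1 (0.78), mCG141182 (0.78) and the transcript BC038614.1 (0.77), which have no symbol here. Of the 32 arrays they were detected on 25, 32, 12, 19 and 18, in that order, and mCG21598.1 was detected on 0 of 4 arrays in every iDC group. The part of readings near the noise level in these r was not tested. After the group means were taken out, their r was 0.37 to 0.57. mCG4978.2 was closest, with 10.27 in vehicle-treated and 8.75 in RSG-treated *Pparg*+/- *LysCre* macrophages, 10.65 and 10.06 in *Pparg* fl/- *LysCre* macrophages, and 7.72 to 8.43 in the iDC groups. Those iDC groups detected it on 2 or 3 of their 4 arrays. In macrophages, 2 of the 5 probes were lower with RSG in all 4 *Pparg*+/- *LysCre* mice, beside 16.3% of all tested probes. In all 4 *Pparg* fl/- *LysCre* mice 1 was, beside 8.9%. The 5 were chosen by r over these same arrays, so the counts are a description only. The lowest r were those of mCG10289.1 (-0.76), mCG10805.1 (-0.73) and mCG3846.2 (-0.73), which were detected on all 32 arrays. mCG10805.1 went from 11.0 in vehicle-treated to 12.9 in RSG-treated *Pparg*+/- *LysCre* macrophages and was at 14.2 in vehicle-treated iDCs of that genotype.

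Among tested probes with a gene symbol, the highest r were those of *Pcdha3* (0.74), a protocadherin, *Jun* (0.71), a subunit of AP-1, and *Rap2b* (0.69), a small GTPase. *Pcdha3* was detected on 17 of the 32 arrays, and *Jun* and *Rap2b* on all 32. *Jun* was lower in iDCs than in macrophages, at 16.7 and 16.8 in the vehicle-treated macrophages of *Pparg*+/- *LysCre* and *Pparg* fl/- *LysCre* mice and at 15.6 and 15.4 in their iDCs. Its RSG difference was -0.27 in *Pparg*+/- *LysCre* macrophages, lower in 4 of 4 mice, and -0.03 in *Pparg* fl/- *LysCre* macrophages, lower in 3 of 4. In iDCs it was -0.12, lower in 4 of 4 mice, in *Pparg*+/- *LysCre* and 0.28, higher in 4 of 4, in *Pparg* fl/- *LysCre* cells.

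The other genes of the *Epdr1* setting could hardly be followed, since 311 of the 33012 probes have a symbol here. No gene of the lysosome list (0 of 105) and none of the PPARγ target and lipid list (0 of 46) had a named probe. Of 31 markers of other marrow cells only *Ear1* and *Hba-a1* had one, and these were tested with limma over all 16620 probes. A call needed a 1.5-fold change and an adjusted p under 0.05. Near-identical copies of both genes exist in the genome, and the probes may read them together. Over the 4 RSG comparisons 2 of 8 tests were called, beside 1.98% of all tests. Over the 4 genotype comparisons 2 of 8 were called, beside 4.74%, and over the 4 cell type comparisons 2 of 8, beside 27.3%. These fits do not pair the arrays of a mouse. With the mouse as a block 3 RSG, 4 genotype and 7 cell type tests were called. For the genotype in vehicle-treated macrophages this fit called 185 of 16620 probes higher and 156 lower, against 9 and 17 without it. In RSG-treated macrophages it called 952 and 812, against 849 and 701. For RSG in *Pparg*+/- *LysCre* macrophages it called 205 and 289, against 95 and 104. The share over all comparisons of a kind is not given for that fit, so its counts cannot be read alone.

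Both genotype calls were in RSG-treated macrophages, but differences in the same directions, not called, were found in vehicle-treated macrophages, where *Epdr1* overlapped between genotypes and differed by 0.17. No *Pparg*+/- *LysCre* macrophage array, with either treatment, detected *Hba-a1*, at an S/N of 0.52 to 2.62. Nor did the macrophage arrays of mouse 5, at 2.87 with vehicle and 1.71 with RSG. All *Hba-a1* differences between genotypes in macrophages therefore rest on readings below detection. They describe measured values only and are not bounds. With vehicle *Hba-a1* differed by 3.34 ± 0.89 (SE, adjusted p = 0.0761, limma) and *Ear1* by -2.12 ± 0.51 (SE, adjusted p = 0.0671, limma). Both were called with the mouse as a block (adjusted p = 0.0427 and 0.0409, limma). Without mouse 5 both were called as well, at 4.30 for *Hba-a1* and -2.71 for *Ear1*. That fit called 1346 of all 16620 probes higher and 1142 lower. As folds of the measured means, *Hba-a1* was 10.1-fold higher in *Pparg* fl/- *LysCre* macrophages with vehicle and 10.8-fold higher with RSG. In each case 3 of their 4 arrays detected it. Without mouse 5 the measured means were 19.7-fold higher with vehicle and 20.2-fold higher with RSG. Over all alternatives with an adjusted p it ran from 1e-06 to 0.224 for *Hba-a1* and from 6.1e-05 to 0.203 for *Ear1* (limma). With RSG *Hba-a1* was 3.43 ± 0.89 (SE, adjusted p = 0.0252, limma) higher in *Pparg* fl/- *LysCre* cells, in a direction in which 5.11% of all probes were called. Its values were 8.67, 12.19, 12.47 and 12.15 in mice 5 to 8, against 7.28 to 8.32 in mice 1 to 4. *Ear1* was lower in these cells, with a difference of -3.11 ± 0.51 (SE, adjusted p = 0.00346, limma), in a direction in which 4.22% of all probes were called. Its values were 17.19, 15.84, 15.08 and 16.58 in mice 5 to 8 and 19.18 to 19.53 in mice 1 to 4. Without mouse 5 the measured differences were 4.34 for *Hba-a1* and -3.45 for *Ear1*. The *Hba-a1* call was lost when any of the other 7 mice was left out, with 3.07 to 3.56, and the *Ear1* call was not. Both RSG calls were of *Ear1*, which was higher with RSG in iDCs, and more cells of its type and more RNA per cell cannot be told apart here. The differences were 2.81 ± 0.31 (SE, adjusted p = 8.5e-05, limma) in *Pparg*+/- *LysCre* cells and 2.29 ± 0.31 (SE, adjusted p = 0.0043, limma) in *Pparg* fl/- *LysCre* cells. In *Pparg*+/- *LysCre* macrophages its RSG difference was 1.75 ± 0.51 (SE, adjusted p = 0.136, limma) in the unpaired fit. Within the same mouse it was 1.56, 1.81, 1.86 and 1.76 in mice 1 to 4, and with the mouse as a block it was called, with an SE of 0.21 (adjusted p = 0.00532, limma). Adjusted p ran from 0.000849 to 0.440 over the alternatives (limma). In mice 5 to 8 the values ran from -0.0033 in mouse 5 to 1.34 in mouse 8, with a mean of 0.76 ± 0.51 (SE), not called in either fit. The part of red cell or eosinophil RNA in the *Epdr1* difference was not tested.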

How the data were processed

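RNA of IL-4 macrophages and iDCs of 8 mice was hybridised to single-color Applied Biosystems chemiluminescence arrays. The methods describe other arrays (Affymetrix), so the steps behind these files are known from the labels and file headers. For each array the authors deposited the intensity of each spot after background correction with its standard deviation, an assay-normalized signal, flags and the S/N, a score. At an S/N of 1 or less (35.8% to 43.9% of probes per array) the signal was the standard deviation in 99.9% of cases. A table of ratios for all 32 arrays was also deposited by the authors and used as an alternative.

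Signals were log2 transformed and quantile normalized over 32 arrays. Depth does not apply to arrays, and 4 mice per group limit the precision. limma 3.58.1 in R 4.3.3 was fitted to 16620 probes with a mean per group, on the 16 arrays of a cell type or, for cell type effects, on all 32, and gave the SE. The fit was tested on simulated data. Probes were named through unversioned RefSeq accessions of GRCm38.p6. Named were *Epdr1*, the 5 highest and 3 lowest probes by r, the 3 highest with a symbol and list genes with a tested probe. *Sfrp4* was added for its position. *Epdr1* and the lists were chosen with earlier results of these data known.

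The mouse number pairs the arrays, since each mouse gave 4. Deviations from group means correlated between its vehicle and RSG arrays with a median r of 0.28 (0.01 to 0.62), against -0.09 between mice. Alternatives were other scalings and signals, an offset, the mouse or scan day as a block, other arrays in the fit, each mouse left out and, added after seeing the data, values at an S/N of 1 or less left out. Tables were made in Python 3.11.15 (pandas 2.3.3, numpy 2.4.6).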

Additional observations from a re-analysis of the deposited data

Results flagged for a closer look

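The RSG difference of *Epdr1* in *Pparg*+/- *LysCre* iDCs was 2.73 in mouse 1 and 0.19 to 0.35 in mice 2 to 4. The gap of mouse 1 to the nearest mouse was 0.94 of the whole range. It was listed because it passed a cut, the critical value of Dixon's test for 4 samples. The cut served only as a rule for listing and not as a test, since *Epdr1* was chosen by these values. The vehicle array of mouse 1 had an S/N of -0.98, so its value there is a noise level and the size of the gap is not a measurement. In all, 18 sets were examined, among which a gap past the cut can arise by chance.

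The RSG difference of *Epdr1* in *Pparg*+/- *LysCre* cells was below 0 in macrophages of 4 of 4 mice and above 0 in iDCs of 4 of 4 mice. The cell type difference in effect was 2.22 and was not tested, since *Epdr1* was chosen by these values. It was 1.77 without the array at the noise level.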

How the results depend on the processing

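Over 218 alternative values of the 16 *Epdr1* differences, 214 kept their sign and none moved by as much as 1 SD between mice. Those that turned were the RSG difference in *Pparg* fl/- *LysCre* iDCs without mouse 5 (0.14), the genotype difference in vehicle-treated macrophages without mouse 3 (-0.03) or mouse 6 (-0.03), and the cell type difference in RSG-treated *Pparg*+/- *LysCre* cells from the assay-normalized signal (-0.08). In macrophages the RSG difference ran from -1.44 to -1.14 in *Pparg*+/- *LysCre* and from -0.90 to -0.71 in *Pparg* fl/- *LysCre* cells over all settings. Paired by mouse (a replicate block), they stayed at -1.34 and -0.80 with an SE of 0.15 in place of 0.29. Without values at an S/N of 1 or less, the RSG difference in *Pparg*+/- *LysCre* iDCs was 0.43. Arrays with *Epdr1* detected numbered 21 of 32 at an S/N of 3, 26 at 2 and 14 at 5. Of the 5 probes most like *Epdr1*, 2 remained among the 5 highest with median scaling, 2 with Spearman's rho and 1 over the 8 group means. Of 8 tests of *Ear1* and *Hba-a1* a kind, genotype calls numbered 2, but 4 with the mouse block. They numbered 1 with the methods' t-test, which includes Benjamini-Hochberg adjustment, and 4 with that test left unadjusted. With only the arrays compared or with no detection filter they numbered 1, and without a mouse each 1 to 5 (5 without mouse 5). Over all 16620 probes, genotype calls in vehicle-treated macrophages were 9 higher and 17 lower, and 1346 and 1142 without mouse 5. In RSG-treated macrophages they were 849 and 701, and 1792 and 1593 without mouse 5. Cell type calls numbered 2, but 7 with the mouse block and 3 with only the arrays compared or the methods' t-test, adjusted or not. Without a mouse each they numbered 2 to 5 (5 without mouse 5). RSG calls numbered 2, but 3 with the mouse block or the unadjusted t-test, and 1 to 2 without a mouse each (1 without mouse 6). Since calls over all probes also change with the setting, these counts of *Ear1* and *Hba-a1* calls are a description only. Signals near the noise level limit every value in iDCs.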
